A study of Mus musculus with 6 samples.

Results

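The type I interferon response was followed through 44 genes of the mouse, picked by gene symbol from the 54433 genes of the deposited table. All 44 symbols were found, each in 1 row. They were grouped by role into 7 sensors with their adaptor, 7 receptor and signalling genes and 30 effectors. Their transcripts were counted in poly(A) RNA of MC3T3-E1, an osteoblast-like line of the mouse. The 3 FR libraries came from fluoride-resistant MC3T3-E1 cells, described as resistant to 30 ppm fluoride, obtained by adapting the line to medium with a 10 ppm gradient and labelled as exposed to a gradient of 30 ppm. The 3 WT libraries came from wild-type cells of the same line, kept in Dulbecco's modified Eagle medium and labelled as controls. The series title names fluoride-tolerant mice as the source, whereas the sample labels describe cells adapted in culture, and the labels are followed here. Both groups share the line and the serum-supplemented medium. Resistance and exposure to fluoride cannot be told apart, and the labels state neither how many lines or clones were adapted separately nor whether a group's 3 libraries are of different cultures. P-values therefore measure the spread between these libraries, which may be technical.

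Cells make type I interferon after sensors such as RIG-I and MDA5 bind foreign or misplaced RNA and signal through the mitochondrial adaptor MAVS. Secreted interferon binds the receptor of IFNAR1 and IFNAR2, and a transcription factor complex that holds STAT2 and IRF9 then switches on a wide set of antiviral effectors through a DNA element in their promoters. Many sensors and factors of the pathway are themselves targets of it, and connective tissue cells keep a low tonic level of the response without infection.

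The tables summed to between 19246119 and 25185697 counts in FR and between 25700497 and 27140662 in WT. Levels are CPM, counts per library total scaled to a common size with TMM factors, and 3 counts in a library equalled 0.120 to 0.156 CPM in FR and 0.110 to 0.117 CPM in WT, for counting error only. Of markers of the osteoblast lineage and mesenchyme, Runx2, Col1a1, Col1a2, Spp1, Cdh11 and Pdgfrb were detected in each library, while Sp7, Alpl and Bglap, which mark maturing osteoblasts, did not exceed 0.0799 CPM in FR or 0.312 CPM in WT. The 9 markers of that list summed to 4350 to 4410 CPM in FR and 16200 to 16500 CPM in WT. Most of the sum was Col1a1 (635 CPM in FR and 5055 CPM in WT) and Col1a2 (3104 CPM in FR and 9282 CPM in WT). Of 6 tested, 5 were called lower and Pdgfrb higher, against 35.5% lower and 34.6% higher of all genes tested. Runx2 fell 1.22-fold. The part of these markers in the results was not tested. The 10 leukocyte markers summed to 10.3 to 12.2 CPM in FR and 6.63 to 7.99 CPM in WT. Tyrobp and Siglech had no count, Ptprc did not exceed 0.260 CPM in FR or 0.116 CPM in WT, and Csf1r (7.14 ± 0.658 CPM in FR and 0.587 ± 0.200 CPM in WT) and Cd68 (2.26 ± 0.121 CPM in FR and 0.467 ± 0.236 CPM in WT) rose while Lyz2 (1.54 ± 0.196 CPM in FR and 6.15 ± 0.534 CPM in WT) fell. Their part in the results was not tested. The 5 endothelial markers summed to at most 2.44 CPM in FR and 3.82 CPM in WT, and the 5 epithelial markers to at most 0.999 CPM in FR and 0.699 CPM in WT. In bulk RNA, fewer responding cells and less RNA per cell cannot be told apart.

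The promoters of the 4 Ifit genes on chromosome 19, of Isg15, of Ifih1 and of Bst2 are printed below. They show windows with and without a match to the core letters of the response element, beside falls and rises in FR. They were picked after the matches were seen and do not stand for all genes that fell. Ifit1, Ifit3, Ifit3b, Isg15 and Ifih1 fell in FR, whereas Ifit2 and Bst2 rose. The sequences are from RefSeq (GRCm38.p6), read in the direction of transcription from 250 bases before to 50 bases after the start site. Capitals mark the letters GAAA, then any 2 bases, then GAAA, on either strand (read as TTTC, 2 bases, TTTC on the other), the core of the interferon-stimulated response element to which the STAT and IRF factor binds. Ifit2 has 2 start sites in the table, and neither window holds these letters; the window of the upstream site is printed.
Ifit1, chr19:34640639-34640938, plus strand: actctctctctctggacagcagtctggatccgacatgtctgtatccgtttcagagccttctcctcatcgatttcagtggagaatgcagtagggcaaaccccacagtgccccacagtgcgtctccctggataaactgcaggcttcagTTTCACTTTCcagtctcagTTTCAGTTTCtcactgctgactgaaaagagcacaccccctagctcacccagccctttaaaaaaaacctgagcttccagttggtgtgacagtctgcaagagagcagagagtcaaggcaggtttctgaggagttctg
Ifit3, chr19:34583279-34583578, plus strand: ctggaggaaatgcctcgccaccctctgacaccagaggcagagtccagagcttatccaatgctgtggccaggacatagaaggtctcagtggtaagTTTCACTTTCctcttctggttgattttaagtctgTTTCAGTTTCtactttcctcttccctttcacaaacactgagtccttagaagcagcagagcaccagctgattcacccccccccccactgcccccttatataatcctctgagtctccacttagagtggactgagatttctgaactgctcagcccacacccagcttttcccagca
Ifit3b, chr19:34607707-34608006, plus strand: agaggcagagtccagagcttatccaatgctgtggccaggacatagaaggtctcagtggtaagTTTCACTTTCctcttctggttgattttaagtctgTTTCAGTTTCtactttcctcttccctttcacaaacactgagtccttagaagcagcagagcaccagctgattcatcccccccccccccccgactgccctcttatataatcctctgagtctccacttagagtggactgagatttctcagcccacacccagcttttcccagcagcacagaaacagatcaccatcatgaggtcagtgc
Ifit2, chr19:34550444-34550743, plus strand: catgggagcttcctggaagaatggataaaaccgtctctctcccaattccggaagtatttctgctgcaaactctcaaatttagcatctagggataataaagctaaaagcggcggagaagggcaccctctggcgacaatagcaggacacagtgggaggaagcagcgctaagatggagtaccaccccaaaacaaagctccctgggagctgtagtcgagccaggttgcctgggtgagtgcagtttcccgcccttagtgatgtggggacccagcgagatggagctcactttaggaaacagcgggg
Isg15, chr4:156200769-156201068, minus strand: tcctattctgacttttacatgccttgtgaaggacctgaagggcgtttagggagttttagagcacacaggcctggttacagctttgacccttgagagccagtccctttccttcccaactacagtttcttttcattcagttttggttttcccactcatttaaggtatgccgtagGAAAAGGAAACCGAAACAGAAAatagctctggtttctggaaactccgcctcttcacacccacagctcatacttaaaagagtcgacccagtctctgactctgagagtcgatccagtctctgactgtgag
Ifih1, chr2:62646206-62646505, minus strand: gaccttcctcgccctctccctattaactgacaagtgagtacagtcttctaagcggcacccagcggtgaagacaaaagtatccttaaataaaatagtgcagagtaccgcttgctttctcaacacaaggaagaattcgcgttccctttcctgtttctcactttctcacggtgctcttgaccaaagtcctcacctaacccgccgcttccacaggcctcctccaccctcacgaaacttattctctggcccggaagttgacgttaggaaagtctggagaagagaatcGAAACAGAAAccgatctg
Bst2, chr8:71537423-71537722, minus strand: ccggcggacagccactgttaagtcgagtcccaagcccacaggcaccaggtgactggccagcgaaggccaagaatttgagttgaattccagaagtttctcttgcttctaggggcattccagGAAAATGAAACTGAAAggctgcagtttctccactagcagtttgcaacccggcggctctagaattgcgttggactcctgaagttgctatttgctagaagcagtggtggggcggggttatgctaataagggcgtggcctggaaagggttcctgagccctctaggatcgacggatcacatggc

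Setting FR against WT asks which genes of the pathway differ in expression in fluoride-resistant cells. Sensors, signalling factors and effectors of the response were mostly lower in FR. Of the 44 genes, 41 could be tested, and edgeR called 32 lower and 6 higher at an adjusted p under 0.05, while 3 did not pass. Of all 14889 genes tested, 70.1% were called, 35.5% lower and 34.6% higher. A fall of at least 2-fold was found for 26 of the 41 genes and for 11.4% of all genes, and a fall of at least 4-fold for 20 of the 41 and for 6.23% of all genes. The falls counted in this paragraph and its median include 7 genes that no FR library carried past a filter on low counts. Such genes had to differ, and they were 375 of all 14889 genes. None of the 6 rises reached 2-fold, which 7.4% of all genes did. The median log2 fold change was −1.88 for the 41 genes and 0.00 for all genes. Placing the genes at 0 in FR at their bound could not move the median of −1.88, since their bounds also lie below it. The libraries of FR and WT were fully separated in CPM for 32 lower and 6 higher genes of the 41, whereas 72.4% of all genes were separated, 36.6% with FR lower and 35.7% with FR higher.

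A filter on low counts removed Oas3, Oasl1 and Rsad2. Of the tested genes, 7 passed it through the WT libraries alone (Ifih1, Zbp1, Oas2, Mx1, Mx2, Ifi44 and Cmpk2), and such genes had to differ. The folds and adjusted p-values printed for these 7 genes are therefore descriptions and not support for a difference. Among the 29 genes that reached the filter count in all 6 libraries, 20 were called lower, 14 of them at least 2-fold, and 6 higher, with a median log2 fold change of −0.72. Of all 13231 genes that reached it in all 6 libraries, 35.2% were called lower and 36.3% higher. Their share of falls of at least 2-fold and their median were not computed, so the 14 genes and the median of −0.72 have no counterpart here. The 44 genes summed to 720.1 ± 3.29 CPM in FR and 1268 ± 10.4 CPM in WT (SD, n = 3 each). Ifitm3 alone made up 21.4% of the sum in FR and 26.4% in WT, and without it the sums were 566 ± 6.50 CPM in FR and 934 ± 16.6 CPM in WT.

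**Figure D1:**
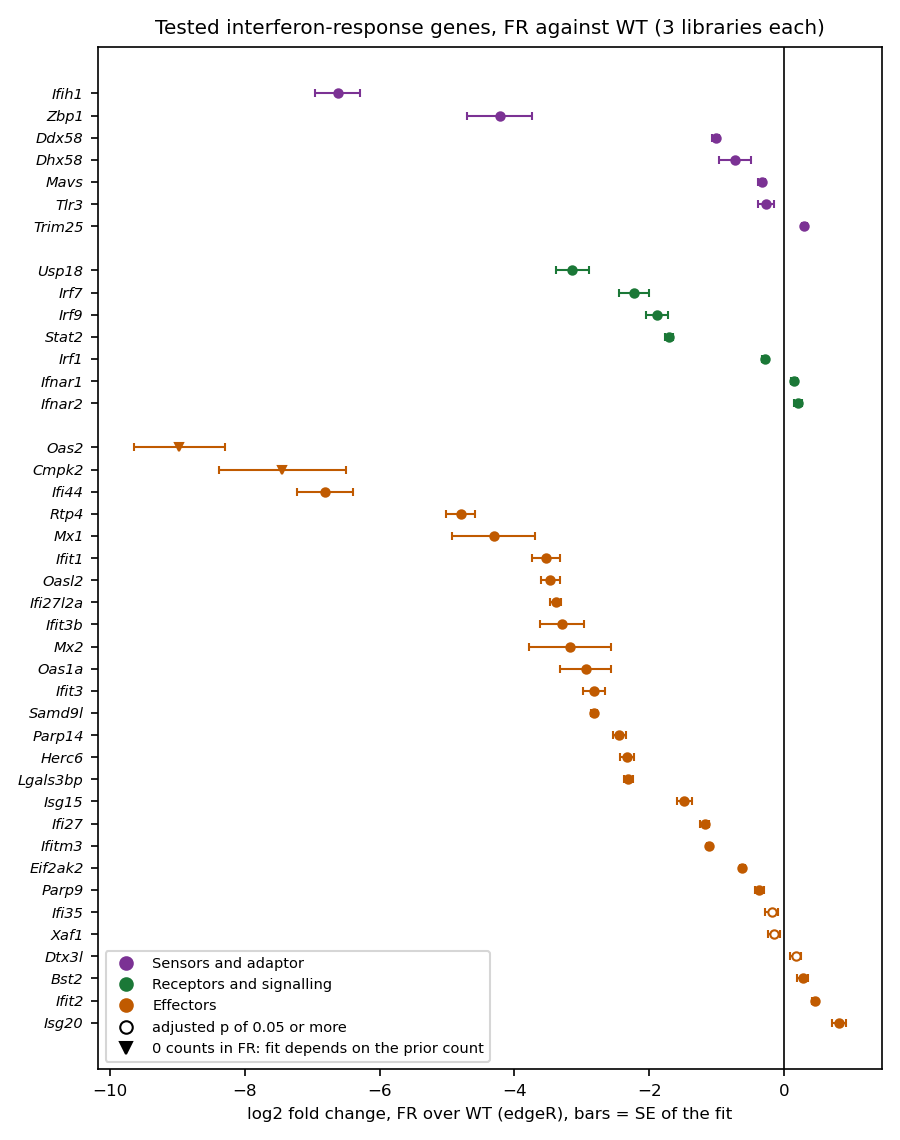
Log2 fold change of the 41 tested genes (x axis, FR over WT, bars are the SE of the edgeR fit), ordered within role groups (y axis), from 3 FR and 3 WT libraries. Of these genes 32 lie to the left with a call and 6 to the right with a call, 3 open points did not pass, and triangles mark Oas2 and Cmpk2, which had no count in FR.

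Among the RNA sensors, the deepest fall was that of Ifih1 (ENSMUSG00000026896), which encodes MDA5, a sensor of long double-stranded RNA. It had 1, 0 and 3 counts in the FR libraries, against 172, 170 and 171 counts in the WT libraries, or 0.0519, 0 and 0.142 CPM in the FR libraries, against 6.30, 6.60 and 6.67 CPM in the WT libraries. The FR libraries were thus at or under the level of 3 counts while each WT library was above 6 CPM. Ifih1 was 107-fold lower in FR by summed counts (41.5 to 394), an exact 95% interval for counting error only. The fitted value was a log2 fold change −6.62 ± 0.33 SE (adjusted p = 1.47e-16), and it was −5.98 without FR replicate 2 and −7.88 without FR replicate 3. Ddx58 (ENSMUSG00000040296), which encodes RIG-I, a sensor of RNA with a triphosphate end, had 27.3, 25.5 and 24.2 CPM in the FR libraries, against 51.7, 49.9 and 53.5 CPM in the WT libraries. Its groups did not overlap, and FR was 2.02-fold lower (log2 fold change −1.01 ± 0.05 SE, adjusted p = 3.08e-16).

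Zbp1 (ENSMUSG00000027514), a sensor of Z-form nucleic acids, had 4, 1 and 1 counts in the FR libraries, against 67, 42 and 34 counts in the WT libraries. All FR libraries were lower than all WT libraries, and Zbp1 was 19.8-fold lower in FR by summed counts (8.85 to 54.9). Its fitted log2 fold change was −4.22 ± 0.49 SE (adjusted p = 1.05e-08), and −5.24 without FR replicate 1, which held 4 of the 6 FR counts. Dhx58 (ENSMUSG00000017830), the RIG-I relative LGP2, was low in each group, with 1.40, 1.44 and 1.13 CPM in the FR libraries, against 2.60, 2.06 and 1.91 CPM in the WT libraries. FR lay below WT (log2 fold change −0.72 ± 0.24 SE, adjusted p = 0.00911), but the call was lost without WT replicate 1 (adjusted p = 0.0649). Tlr3 (ENSMUSG00000031639), the endosomal receptor for double-stranded RNA, had 5.76, 6.07 and 6.33 CPM in the FR libraries, against 7.25, 7.29 and 7.29 CPM in the WT libraries. The FR values lay below the WT values with a small difference (log2 fold change −0.26 ± 0.11 SE, adjusted p = 0.0414). That call ended without FR replicate 1 or 2 or any of the WT replicates, with the replicate number as a block (adjusted p = 0.0581), without a filter and with DESeq2, where the adjusted p reached 0.120.

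The adaptor gene Mavs (ENSMUSG00000037523), through which RIG-I and MDA5 signal, had 35.8, 37.2 and 36.4 CPM in the FR libraries, against 48.7, 45.8 and 43.1 CPM in the WT libraries. Its fall was small beside that of Ifih1 (log2 fold change −0.33 ± 0.05 SE, adjusted p = 1.52e-06), and the groups did not overlap. Trim25 (ENSMUSG00000000275), a ubiquitin ligase that acts on the RIG-I pathway, had 79.8, 80.3 and 79.2 CPM in the FR libraries, against 64.6, 63.0 and 66.3 CPM in the WT libraries. It rose in FR (log2 fold change 0.30 ± 0.04 SE, adjusted p = 2.88e-08). All 7 sensor and adaptor genes were called, 6 lower and 1 higher, against 35.5% lower and 34.6% higher of all genes tested. The 6 include Ifih1 and Zbp1, which passed the filter through the WT libraries alone and had to differ. With these included, the median log2 fold change of the 7 was −0.72 and the range was −6.62 (Ifih1) to 0.30. Exons of Dhx58 and Tlr3 overlap antisense genes in the reference annotation, and their reads cannot be told apart since the labels leave strand unstated.

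The receptor genes were slightly higher in FR, whereas genes for the factors downstream of the receptor were lower. Ifnar1 (ENSMUSG00000022967) had 49.6, 51.2 and 51.2 CPM in the FR libraries, against 46.9, 44.0 and 46.0 CPM in the WT libraries. The rise was small (log2 fold change 0.15 ± 0.04 SE, adjusted p = 0.00341), and its call was lost without WT replicate 2 (adjusted p = 0.0517). Ifnar2 (ENSMUSG00000022971) had 25.1, 24.7 and 25.1 CPM in the FR libraries, against 21.4, 20.9 and 22.3 CPM in the WT libraries. It also rose (log2 fold change 0.21 ± 0.06 SE, adjusted p = 0.00281), and its exons overlap the gene Gm21970 on the same strand. Stat2 (ENSMUSG00000040033), the STAT protein particular to interferon signalling, had 18.9, 17.0 and 16.2 CPM in the FR libraries, against 59.0, 54.4 and 56.2 CPM in the WT libraries. Each FR library was below each WT library, and FR was 3.27-fold lower (log2 fold change −1.71 ± 0.06 SE, adjusted p = 8.72e-21).

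Irf9 (ENSMUSG00000002325), the DNA-binding partner of STAT2, had 2.08, 2.72 and 2.69 CPM in the FR libraries, against 9.89, 7.10 and 10.9 CPM in the WT libraries. The WT libraries spread more widely than for Stat2, with WT replicate 2 lowest, and still did not overlap with FR (log2 fold change −1.88 ± 0.17 SE, adjusted p = 1.61e-09). Exons of Irf9 overlap those of Rnf31 on the same strand, so reads from the shared stretch may belong to either gene. Irf7 (ENSMUSG00000025498), which drives the amplification of interferon alpha genes, had 0.831, 0.759 and 0.945 CPM in the FR libraries, against 4.07, 3.88 and 3.90 CPM in the WT libraries, a 4.67-fold lower level in FR (log2 fold change −2.22 ± 0.22 SE, adjusted p = 3.56e-10). Irf1 (ENSMUSG00000018899), a factor induced by interferon gamma and by inflammatory signals, was at 54.7, 51.3 and 53.0 CPM in the FR libraries, against 65.7, 63.8 and 64.0 CPM in the WT libraries. Irf1 fell by a small amount (log2 fold change −0.28 ± 0.04 SE, adjusted p = 4.78e-07), and its groups did not overlap.

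Usp18 (ENSMUSG00000030107) encodes the protease that removes ISG15 from proteins and also restrains the receptor. It had 0.312, 0.559 and 0.708 CPM in the FR libraries, against 4.40, 4.50 and 5.34 CPM in the WT libraries, and it was 8.82-fold lower in FR (log2 fold change −3.14 ± 0.24 SE, adjusted p = 2.23e-12). FR replicate 1 was the lowest of the FR libraries, and none of them reached the range of WT. Of the 7 receptor and signalling genes, 5 fell and 2 rose, against 35.5% lower and 34.6% higher of all genes tested. The median log2 fold change of the 7 was −1.71. Irf1, Irf7 and Usp18 overlap another gene on the opposite strand.

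**Figure D2:**
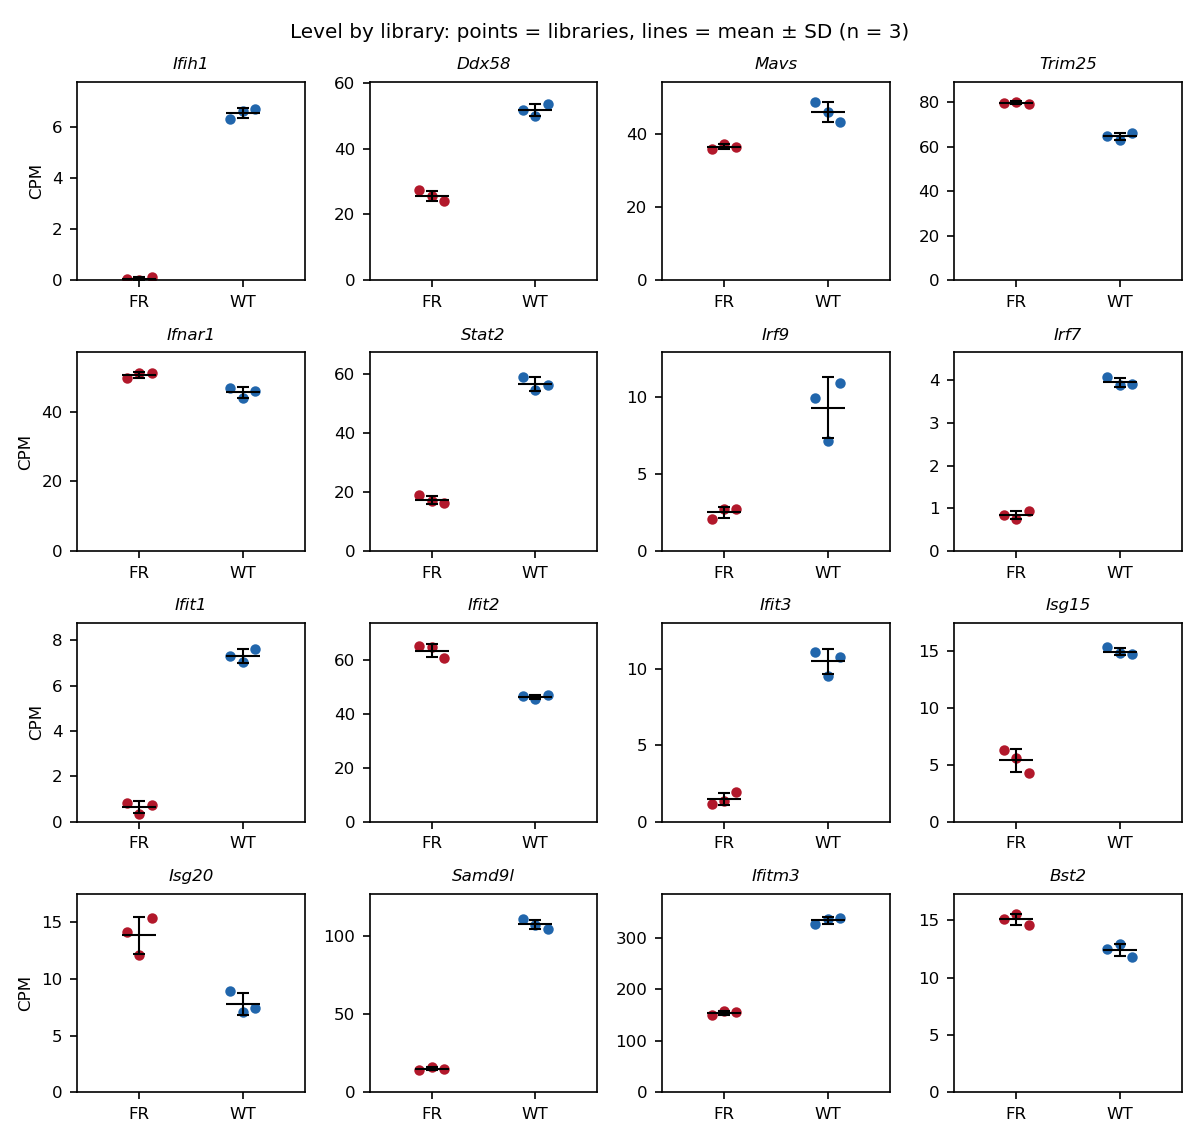
CPM of 16 genes in each library (y axis, from 0; FR left, WT right; points are libraries, lines mean ± SD, n = 3). Ifih1, Stat2, Irf7, Ifit1, Ifit3 and Samd9l lie far lower in FR than in WT, while Trim25, Ifnar1, Ifit2, Isg20 and Bst2 lie somewhat higher in FR.

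The Ifit genes encode proteins that bind foreign RNA and hold back its translation. They did not move together, although Ifit2 and Ifit3 are neighbours on the chromosome. Ifit1 (ENSMUSG00000034459) had 0.831, 0.360 and 0.756 CPM in the FR libraries, against 7.29, 7.02 and 7.61 CPM in the WT libraries, and it was 11.5-fold lower in FR (log2 fold change −3.53 ± 0.21 SE, adjusted p = 5.88e-15). Ifit3 (ENSMUSG00000074896) had 1.14, 1.36 and 1.94 CPM in the FR libraries, against 11.1, 9.55 and 10.8 CPM in the WT libraries, and the FR libraries lay far below the WT libraries (log2 fold change −2.82 ± 0.16 SE, adjusted p = 1.47e-15). Ifit3b (ENSMUSG00000062488), a near-identical copy of Ifit3, had 0.312, 0.120 and 0.519 CPM in the FR libraries, against 3.08, 3.03 and 3.08 CPM in the WT libraries, again without overlap (log2 fold change −3.29 ± 0.32 SE, adjusted p = 3.86e-10). Reads of the Ifit3 copies were divided by estimation, and with the copies summed the log2 fold change was −2.92. Ifit2 (ENSMUSG00000045932) had 65.2, 64.8 and 60.7 CPM in the FR libraries, against 46.6, 45.4 and 47.0 CPM in the WT libraries. Ifit2 rose in FR (log2 fold change 0.46 ± 0.04 SE, adjusted p = 1.60e-10), and all 3 FR libraries were above all 3 WT libraries.

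The oligoadenylate synthetases make the messenger that activates the RNA-degrading enzyme RNase L. Oas2 (ENSMUSG00000032690) had 0, 0 and 0 counts in the FR libraries, against 83, 62 and 61 counts in the WT libraries. With 0 in each FR library, it was at least 18.8-fold lower in FR, computed against 3 counts per library (edgeR adjusted p = 4.20e-12). Oas1a (ENSMUSG00000052776) had 0.286 ± 0.261 CPM in FR and 2.26 ± 0.111 CPM in WT (SD, n = 3 each; log2 fold change −2.94 ± 0.38 SE, adjusted p = 1.62e-07). Its value was −3.81 without FR replicate 3, and −2.60 with all Oas1 copies summed. Oasl2 (ENSMUSG00000029561) had 1.25 ± 0.163 CPM in FR and 13.8 ± 0.455 CPM in WT and was 11.1-fold lower in FR (adjusted p = 6.71e-19). Oas3 (ENSMUSG00000032661) had 2, 1 and 0 counts in the FR libraries, against 8, 7.83 and 13 counts in the WT libraries and was not tested. Oasl1 (ENSMUSG00000041827), also untested, had 3 counts in FR replicate 2 and none in any other library.

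The Mx genes encode dynamin-like antiviral GTPases. Mx1 (ENSMUSG00000000386) had 0, 3 and 1 counts in the FR libraries, against 48, 39 and 16 counts in the WT libraries, and it was 21.4-fold lower in FR by summed counts (8.13 to 80.0). WT replicate 3 was lowest among the WT libraries and still above FR (log2 fold change −4.31 ± 0.61 SE, adjusted p = 1.07e-06), and the fitted value was −5.46 without FR replicate 2. Mx2 (ENSMUSG00000023341), annotated as a polymorphic pseudogene in the reference, had 1, 0 and 4 counts in the FR libraries, against 21, 16 and 21 counts in the WT libraries, and it was 9.62-fold lower in FR by summed counts (3.91 to 30.9). Its fitted log2 fold change was −3.18 ± 0.61 SE (adjusted p = 3.66e-05), −2.54 without FR replicate 2 and −4.74 without FR replicate 3. Cmpk2 (ENSMUSG00000020638), a nucleotide kinase encoded beside Rsad2, had 0, 0 and 0 counts in the FR libraries, against 24, 30 and 17 counts in the WT libraries, at least 6.49-fold lower in FR against 3 counts per library (edgeR adjusted p = 9.37e-08). Rsad2 (ENSMUSG00000020641), which encodes viperin, had 0, 0 and 1 counts in the FR libraries, against 3, 4 and 5 counts in the WT libraries and was not tested.

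Ifi44 (ENSMUSG00000028037), an interferon-induced GTP-binding protein gene, had 0, 1 and 1 counts in the FR libraries, against 115, 100 and 100 counts in the WT libraries, and it was 131-fold lower in FR by summed counts (36.0 to 1090). Every WT library held at least 100 counts, and none of the FR libraries held more than 1 (log2 fold change −6.81 ± 0.42 SE, adjusted p = 1.56e-14). Rtp4 (ENSMUSG00000033355), which encodes a chaperone of membrane receptors, had 0.104, 0.3996 and 0.519 CPM in the FR libraries, against 9.45, 10.0 and 10.3 CPM in the WT libraries. FR replicate 1 was lowest, and all FR libraries were far below WT (log2 fold change −4.80 ± 0.22 SE, adjusted p = 1.54e-17). Ifi27l2a (ENSMUSG00000079017), a small hydrophobic protein gene, had 3.92 ± 0.486 CPM in FR and 41.4 ± 1.94 CPM in WT (SD, n = 3 each), and its neighbour Ifi27 (ENSMUSG00000064215) had 10.8 ± 0.325 CPM in FR and 24.3 ± 0.590 CPM in WT. Both fell, at a log2 fold change of −3.38 ± 0.08 SE for Ifi27l2a (adjusted p = 4.62e-24) and −1.18 ± 0.07 SE for Ifi27 (adjusted p = 2.11e-14). Samd9l (ENSMUSG00000047735), an antiviral factor that limits translation, had 14.3, 15.9 and 15.2 CPM in the FR libraries, against 110.3, 107 and 104 CPM in the WT libraries. It was 7.04-fold lower in FR and had the smallest adjusted p of the 41 genes (log2 fold change −2.81 ± 0.05 SE, adjusted p = 9.86e-28).

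Among genes of ISG15 conjugation, a ubiquitin-like modification, Isg15 (ENSMUSG00000035692) had 6.28, 5.59 and 4.30 CPM in the FR libraries, against 15.3, 14.9 and 14.7 CPM in the WT libraries. Isg15 was 2.78-fold lower in FR (log2 fold change −1.48 ± 0.11 SE, adjusted p = 1.19e-12). Herc6 (ENSMUSG00000029798), the main ISG15 ligase of the mouse, had 4.04 ± 0.481 CPM in FR and 20.4 ± 0.712 CPM in WT (SD, n = 3 each) and was 5.03-fold lower in FR (adjusted p = 3.10e-18). The ADP-ribosyltransferase genes fell unequally. Parp14 (ENSMUSG00000034422) had 4.07 ± 0.524 CPM in FR and 22.0 ± 0.479 CPM in WT (SD, n = 3 each; log2 fold change −2.44 ± 0.10 SE, adjusted p = 6.70e-19). Parp9 (ENSMUSG00000022906) had 17.0 ± 0.480 CPM in FR and 21.9 ± 1.90 CPM in WT (log2 fold change −0.36 ± 0.07 SE, adjusted p = 7.43e-05). Dtx3l (ENSMUSG00000049502), the ubiquitin ligase that partners PARP9, had 15.4, 16.6 and 15.8 CPM in the FR libraries, against 13.4, 15.5 and 13.4 CPM in the WT libraries. Its groups overlapped and it did not pass (log2 fold change 0.18 ± 0.08 SE, adjusted p = 0.0560), though it passed as higher without WT replicate 2 (adjusted p = 0.0246). Dtx3l also passed as higher with limma-voom (adjusted p = 0.0437) and with assembled loci without a name left out (adjusted p = 0.0487). Exons of Parp9 and Dtx3l overlap on opposite strands, so reads from the shared stretch cannot be told apart.

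Eif2ak2 (ENSMUSG00000024079), which encodes the kinase PKR that stops translation on binding double-stranded RNA, had 53.0 ± 0.594 CPM in FR and 81.0 ± 1.67 CPM in WT (SD, n = 3 each) and fell (log2 fold change −0.61 ± 0.04 SE, adjusted p = 2.03e-14). Lgals3bp (ENSMUSG00000033880), a secreted glycoprotein gene, had 8.46 ± 0.447 CPM in FR and 41.9 ± 0.278 CPM in WT (log2 fold change −2.31 ± 0.07 SE, adjusted p = 1.69e-22). Ifitm3 (ENSMUSG00000025492), a membrane protein gene that blocks viral entry and the most abundant of the 44 genes, had 151, 157 and 155 CPM in the FR libraries, against 326, 337 and 339 CPM in the WT libraries. Ifitm3 was 2.16-fold lower in FR (log2 fold change −1.11 ± 0.03 SE, adjusted p = 1.05e-23), and with its relatives Ifitm1, Ifitm2, Ifitm6 and Ifitm7 summed the log2 fold change was −0.91.

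Among effectors, 3 rose. Besides Ifit2, Isg20 (ENSMUSG00000039236), an exonuclease that degrades RNA, had 14.1, 12.1 and 15.3 CPM in the FR libraries, against 8.90, 7.06 and 7.45 CPM in the WT libraries. Its FR values were all above the WT values, the largest rise of the 41 genes (log2 fold change 0.82 ± 0.11 SE, adjusted p = 1.36e-07). Bst2 (ENSMUSG00000046718), which encodes tetherin, a protein that holds budding virus at the cell surface, had 15.1, 15.5 and 14.6 CPM in the FR libraries, against 12.5, 12.9 and 11.8 CPM in the WT libraries. Bst2 rose by a small amount without overlap (log2 fold change 0.28 ± 0.08 SE, adjusted p = 0.00317).

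Besides Dtx3l, 2 effectors did not pass. Ifi35 (ENSMUSG00000010358), a regulator of the response, had 21.6, 16.4 and 15.9 CPM in the FR libraries, against 20.6, 20.02 and 20.1 CPM in the WT libraries. FR replicate 1 was above every WT library while the other FR libraries were below them (log2 fold change −0.18 ± 0.09 SE, adjusted p = 0.0928). Without FR replicate 1, Ifi35 passed as lower (log2 fold change −0.33, adjusted p = 0.000519), and with the replicate number as a block its adjusted p was 0.0449. Ifi35 also passed as lower without a filter (adjusted p = 0.0165) and with limma-voom (adjusted p = 0.0438). Xaf1 (ENSMUSG00000040483), a gene linked to cell death, had 14.4, 12.2 and 14.3 CPM in the FR libraries, against 14.9, 15.8 and 14.4 CPM in the WT libraries, and the groups overlapped (log2 fold change −0.14 ± 0.09 SE, adjusted p = 0.132). Exons of Ifi35, Oasl1, Eif2ak2, Rtp4, Herc6 and Parp14 also overlap another annotated gene, so some of their reads may belong to it. In all, 21 of the 27 tested effectors fell, 3 rose and 3 did not pass, against 35.5% lower and 34.6% higher of all genes tested. Of the 21, 5 passed the filter through the WT libraries alone and had to differ (Oas2, Mx1, Mx2, Ifi44 and Cmpk2). The median over the 27, with these 5 included, was a log2 fold change of −2.44.

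**Figure D3:**
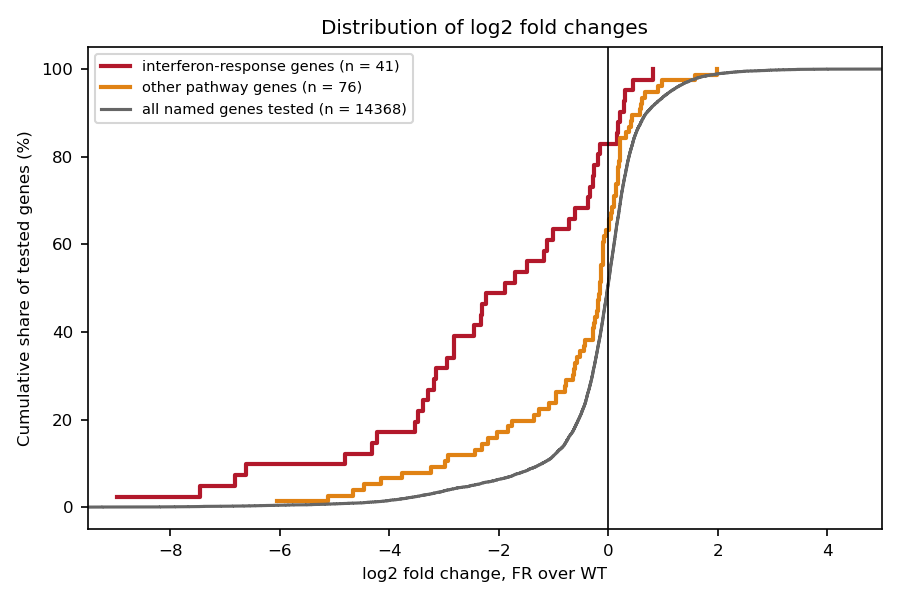
Cumulative share of tested genes (y axis, percent) against the log2 fold change, FR over WT (x axis), for the 41 genes, for 76 other genes of the pathway and for 14368 named genes. The curve of the 41 genes has its median at −1.88 and that of the other pathway genes at −0.15.

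To compare levels between genes, counts were also divided by the deposited gene length and scaled to TPM, a unit in which every library has the same total. By TPM, the highest level in WT was that of Ifitm3, with 439.9 ± 4.83 TPM in FR and 993 ± 9.98 TPM in WT (SD, n = 3 each). Next came Ifi27l2a with 16.3 ± 1.86 TPM in FR and 179.9 ± 7.83 TPM in WT, and then Irf1 with 48.0 ± 2.12 TPM in FR and 60.9 ± 1.62 TPM in WT. In FR, Irf1 at 48.0 TPM, Bst2 at 36.8 TPM and Ifnar1 at 35.3 TPM followed Ifitm3 in order of mean level, while Ifi27l2a was at 16.3 TPM. The lowest level among tested genes in WT was that of Cmpk2, with a mean of 0.568 TPM, and it had 0 TPM in FR. Across the 41 tested genes, the Spearman correlation between mean TPM in WT and log2 fold change was 0.52, and it was −0.03 across the 29 genes that reached the filter count in all 6 libraries. These values describe genes of the same libraries and are given without a test.

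**Figure D4:**
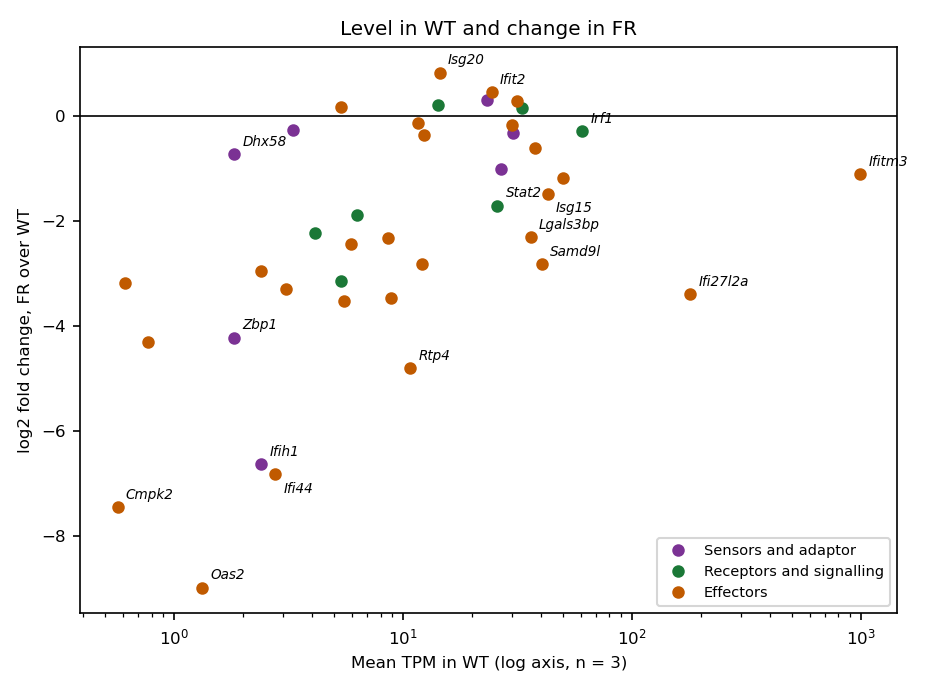
Mean TPM in WT (x axis, log scale, n = 3) and log2 fold change, FR over WT (y axis), of the 41 tested genes, coloured by role. The deepest fitted falls, Oas2, Cmpk2, Ifi44 and Ifih1, lie below 3 TPM in WT, while the abundant Ifitm3 and Ifi27l2a lie at −1.11 and −3.38.

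Promoter sequence was on file for 33 of the 44 genes. Dhx58, Ifi27, Ifi27l2a, Mx1, Mx2, Oas2, Parp14, Parp9, Rtp4, Usp18 and Zbp1 had no entry. The paired GAAA motif, searched on both strands, was found for 13 of the 33 genes (39.4%), against 1079 of all 27025 genes with a promoter (3.99%) and 379 of 10272 genes tested here (3.69%). It was present for 10 of 21 genes that fell, for Bst2 among the 6 that rose, for none of the 3 that did not pass and for the untested Oas3 and Rsad2. Of the genes that fell at least 2-fold, 9 of 17 held it, and of those that fell less, 1 of 4 did. The 11 fallen genes whose windows lack it include Cmpk2 and Ifi44, among the deepest falls, and Oasl2, Samd9l, Herc6, Lgals3bp, Irf7, Irf9, Mavs, Irf1 and Tlr3. Isg20, the gene with the largest rise, lacks it too. Isg15 held 3 overlapping matches, and Ifit1, Ifit3, Ifit3b, Oas1a, Ifitm3 and Bst2 held 2 each. Between the printed windows of Ifit3 and Ifit3b, the longest identical stretch ran over 169 bases.

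A second motif, TTCNNNGAA, the gamma-activated sequence, reads alike on both strands. It was found for 10 of the 33 genes (30.3%), against 2582 of all 27025 genes (9.55%). It was present for 4 of the 21 genes that fell and for 5 of the 6 that rose. Both motifs occurred in the promoters of 4 genes, and they overlapped in those of Bst2 and Ifitm3. The 44 genes were gathered as targets of interferon, and a match to these letters is not evidence of binding. A window without a match does not show that an element is absent, since only these exact letters were searched.

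**Figure D5:**
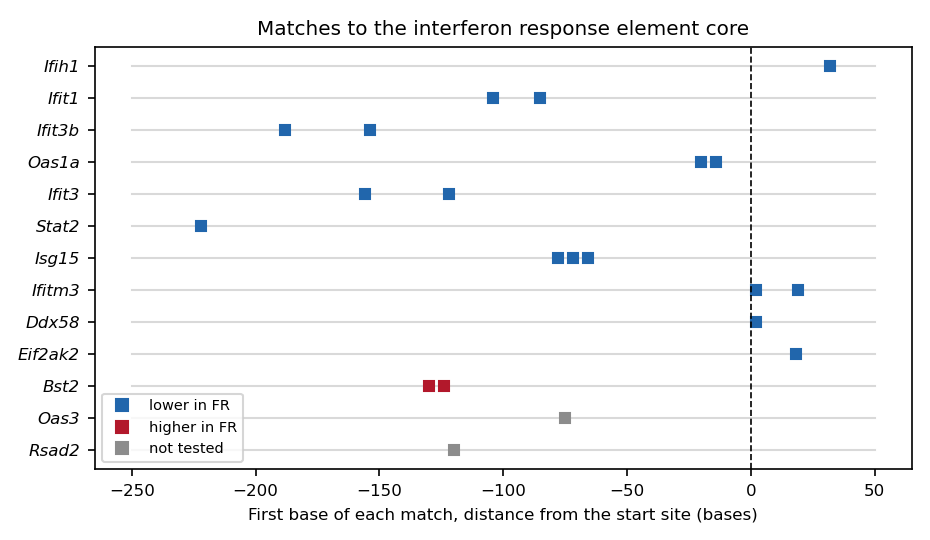
Position of each match to the paired GAAA motif (x axis, distance of its first base from the start site in bases) in the promoters of the 13 genes that hold it (y axis, ordered by log2 fold change, untested genes last). Matches of Ifit1, Ifit3, Ifit3b and Isg15 lie upstream of the start site, and those of Ifih1, Ddx58, Ifitm3 and Eif2ak2 lie just downstream of it.

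Of 89 other genes of interferon induction, reception and response, 76 could be tested, and 35 of them fell (46.1%, against 35.5% of all genes) while 18 rose (23.7%, against 34.6% of all genes). Of the 35 that fell, 5 passed the filter through the WT libraries alone and had to differ (Gvin1, Iigp1, Slfn2, Oas1b and Oas1c). The other 23 did not pass, and the median of the 76 log2 fold changes was −0.15. The 6 type I interferon genes looked up were near or at 0 counts, and other interferon genes were not examined. Ifna1, Ifna2, Ifna4, Ifnb1, Ifnk and Ifne together had 7 counts over the 3 FR libraries and 6 over the 3 WT libraries, and Ifnb1 had a single count, in FR replicate 2. At the receptor, Jak1, the kinase bound to IFNAR2, rose and Tyk2, the kinase bound to IFNAR1, fell. Jak1 had 309, 303 and 295 CPM in the FR libraries, against 229, 234 and 236 CPM in the WT libraries (log2 fold change 0.37 ± 0.03 SE, adjusted p = 7.11e-13). Tyk2 was at 21.7 ± 1.83 CPM in FR and 25.9 ± 1.23 CPM in WT (SD, n = 3 each; log2 fold change −0.26 ± 0.07 SE, adjusted p = 0.00109).

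Irf3, the factor that switches on interferon beta downstream of MAVS, did not pass (27.8 ± 1.81 CPM in FR and 25.9 ± 0.832 CPM in WT; log2 fold change 0.10 ± 0.06 SE, adjusted p = 0.128). The interferon gamma receptor genes did not pass either, at a log2 fold change of 0.04 ± 0.05 SE for Ifngr1 (adjusted p = 0.470) and −0.08 ± 0.06 SE for Ifngr2 (adjusted p = 0.207). Socs1, a feedback inhibitor of JAK kinases, was at 11.6 ± 1.00 CPM in FR and 12.4 ± 0.678 CPM in WT and did not pass (adjusted p = 0.366). Adar, an RNA-editing enzyme that keeps self RNA from MDA5, fell by a small amount (log2 fold change −0.27 ± 0.04 SE, adjusted p = 1.54e-07).

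Under the rule for named genes, the 4 lowest fitted values were those of Gvin1 (log2 fold change −6.05 ± 0.32 SE), a very large inducible GTPase gene, Tent5a (−5.11 ± 0.15), a poly(A) polymerase gene, Iigp1 (−4.65 ± 0.28), an immunity-related GTPase gene, and Slfn2 (−4.45 ± 0.24), of the Schlafen family. Of these 4, Tent5a alone reached the filter count in FR, and the falls of the other 3 are given as descriptions. Iigp1 had 0.211 ± 0.114 CPM in FR and 5.51 ± 0.777 CPM in WT (SD, n = 3 each). The largest rises were those of Sting1 (log2 fold change 1.99 ± 0.19 SE), the adaptor for cytosolic DNA, Apobec3 (1.58 ± 0.07), a cytidine deaminase, Ifi204 (0.97 ± 0.07), a DNA sensor, and Gch1 (0.91 ± 0.15), an enzyme of tetrahydrobiopterin synthesis. Sting1 had 4.73, 5.27 and 5.20 CPM in the FR libraries, against 1.06, 1.55 and 1.21 CPM in the WT libraries, and FR was higher in each library. The adjusted p-values of Tent5a and the 4 genes that rose were 4.61e-06 or smaller in edgeR. Gvin1, Iigp1, Slfn2 and Ifi204 belong to families with close copies, so their reads may be misassigned.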

How the data were processed

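Expected counts of each gene in 6 libraries, unscaled for depth, stand in the authors' deposited table. Per the submitters' processing notes, the tools were fastp, HISAT and RSEM and the build was GRCm39, and versions, settings and annotation release are not given in the sources used here. RSEM divides reads that match several genes by estimation. The deposited gene lengths served for TPM, and the deposited group means were not used. Assembled loci without a name took 0.884% to 1.48% of counts.

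Expected counts were rounded and filtered with filterByExpr of edgeR 4.0.16 (R 4.3.3; minimum count 10), scaled by TMM and tested with the robust quasi-likelihood F-test over all 14889 genes (Benjamini-Hochberg, threshold 0.05, all 6 libraries, no further term). SE is the log2 fold change divided by the root of F. The members, lists and motifs were chosen with earlier results of these data known. Genes with values in every library are, in each role group, the 4 lowest and 2 highest log2 fold changes at a mean of 1 CPM or more in a group, all rises, all that did not pass, and the Ifit3 copies, with Mavs, Irf1, Ifit1, Samd9l, Isg15, Ifitm3 and genes given by counts added after their values were seen. GENCODE M21 and the RefSeq promoters are of GRCm38, another build, and served for overlaps, neighbours and promoter sequence with GRCm38.p6 coordinates. The tests were checked on simulated data with 50 genes changed at each fold, in a fit of 14843 genes. There, 56% of the 1.2-fold and 94% of the 2-fold changes were called. In the libraries themselves 70.1% of genes were called, so the check does not cover a change that wide. The result of 1 listed gene is not reported here. Figures used matplotlib 3.10.9.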

Additional observations from a re-analysis of the deposited data

How the results depend on the processing

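With edgeR as the main test, 32 of 41 tested genes were called lower and 6 higher in FR. Over median-of-ratios factors, library size alone, no filter, a filter at 1 CPM on average, the quasi-likelihood fit without its robust option, DESeq2 1.42.0, limma-voom and the 10 most abundant genes left out, the lower count ran from 28 to 33 and the higher count from 6 to 7. The count of 28 came with the filter at 1 CPM, which tested 37 of the genes. With assembled loci left out, an alternative chosen after seeing the data, the counts were 32 lower and 7 higher. Leaving out each library in turn gave 30 to 32 lower and 6 higher. With the replicate number as a block the counts were 32 lower and 6 higher. Same-numbered libraries did not deviate together (correlations of 0.014, −0.028 and −0.059 over 10785 genes), so the numbers are not taken to pair them. For the other pathway genes the alternatives gave 33 to 37 lower and 17 to 19 higher, against 35 and 18.

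No tested gene changed direction under any of these alternatives. Calls changed for Tlr3, Dhx58, Ifnar1, Ifi35 and Dtx3l, and the cause was not tested. Fitted folds moved by over 1.5 times for Ifih1, Zbp1, Mx1, Mx2 and Oas1a when an FR library was left out. Each of these genes had 4 to 19 counts over the FR libraries. Folds also moved by over 1.5 times for Oas2 and Cmpk2, which had no count in FR, with DESeq2 or limma-voom. The cause was not tested. The 3 untested genes had too few counts for the filter.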
